A study of Mus musculus with 6 samples.

Results

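Mismatch repair corrects the base mispairs and small loops that DNA polymerases leave behind, and 6 of its genes are described here: Msh3, Msh6, Mlh3, Pms1, Pms2 and Exo1. The members were taken by symbol from the 41325 gene rows that each deposited file lists, and all 6 were found in every file and had enough reads to be tested. Poly(A) RNA-seq was done on 6 bulk samples labelled as salivary gland, from female ICR mice (an outbred stock) that were 10 weeks old at purchase. Every mouse received 5-fluorouracil (5-FU) by intraperitoneal injection, 20 mg/kg per day on 2 occasions a week for 3 weeks. The elemental diet group (3 libraries) was also given Elental, a liquid formula of amino acids, by mouth at 1.6 kcal in 0.8 mL per day on 5 days a week. The saline group (3 libraries) received the same volume of saline in its place. 5-FU was thus common to both groups, and each comparison is of elemental diet with saline under 5-FU. The labels give 3 mice per group but do not tie a library to a mouse; the p-values rest on the spread among libraries, some of which may be technical.

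In mismatch repair a MutS protein pair binds the mispair, a MutL protein pair is recruited and cuts the new strand, an exonuclease removes the stretch, and the replication machinery fills and seals the gap. Msh6 is the subunit that directs MutS to single mispairs and Msh3 the subunit that directs it to larger loops. Pms2 carries the nicking activity of the main MutL pair, Pms1 belongs to a MutL pair without a known nicking activity, and Mlh3 to the pair best known from meiotic crossing over. Exo1 is the exonuclease. The pathway is known to recognise 5-FU paired with guanine in DNA, and in B cells it takes part in antibody hypermutation.

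Libraries held 29053287 to 33073125 reads assigned to genes, and a count of 0 allows a level of up to 0.0907 to 0.103 CPM (3 reads, as reads per 1000000), for counting error only. Of 10 salivary gland markers 4 (Smgc, Pip, Bpifa1 and Prb1) had 0 reads in all 6 libraries, 2 could be tested and the summed level of the list was 6.26 to 7.18 CPM with elemental diet and 10.5 to 12.9 CPM with saline. The extraction protocol in the labels names fibroblasts or keratinocytes. The summed level of 6 markers of those cells was 276 to 488 CPM with elemental diet and 297 to 336 CPM with saline. Among them the collagen genes Col1a1 and Col1a2 averaged 114 and 193 CPM with elemental diet and 43.2 and 160 CPM with saline. The keratin genes Krt10 and Krt1 averaged 1.34 and 0.0714 CPM with elemental diet and 2.42 and 0.0991 CPM with saline. Pdgfra and Dcn averaged 28.5 and 30.8 CPM with elemental diet and 62.1 and 45.1 CPM with saline, and the Dcn groups overlapped. Of the 5 of these markers tested, Col1a1 was called higher and Krt10 and Pdgfra lower. Krt1 was not tested, and Krt1 and Dcn were named after their values were seen. Erythroid markers summed to 43416 to 44377 CPM with elemental diet and 2916 to 4607 CPM with saline, and all 11 were higher. B cell markers summed to 1802 to 1912 CPM and 14126 to 14658 CPM, and all 8 were lower. Markers of proliferating cells summed to 3790 to 4451 CPM and 141 to 147 CPM, and all 10 were higher. All 8 neutrophil precursor markers were higher too, with the largest median of the cell type lists (log2 fold change 6.95) and sums of 222 to 258 CPM against 5.60 to 6.70 CPM. All 7 T cell markers were lower, with sums of 59.2 to 64.6 CPM against 380 to 463 CPM. Over all genes tested, 38.0% were called higher and 40.2% lower. These 5 lists, from erythroid to T cell markers, moved alongside the mismatch repair genes below, and their part in those results was not tested. In bulk libraries fewer cells of a type and less RNA per cell cannot be told apart.

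The 6 transcripts differed from each other in how far they moved. Exo1 was 22.2-fold higher with elemental diet, Msh6 4.88-fold, Pms2 2.34-fold, Pms1 1.87-fold and Msh3 1.59-fold, while Mlh3 did not pass the test. With edgeR's quasi-likelihood test and a Benjamini-Hochberg adjusted p under 0.05 over 18303 genes, 5 of the 6 were called higher and 0 lower, where 38.0% of all genes tested were called higher and 40.2% lower (78.1% in either direction). The median log2 fold change of the 6 was 1.06, against -0.08 over all genes tested. Genes with a larger log2 fold change made up 1.11% of all tested for Exo1, 5.69% for Msh6, 15.2% for Pms2, 21.5% for Pms1, 26.9% for Msh3 and 43.8% for Mlh3. Tested against a change of 1.5-fold, 4 of the 6 were called higher (24.2% of all genes) and Msh3 was not (adjusted p = 0.0937).

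**Figure D1:**
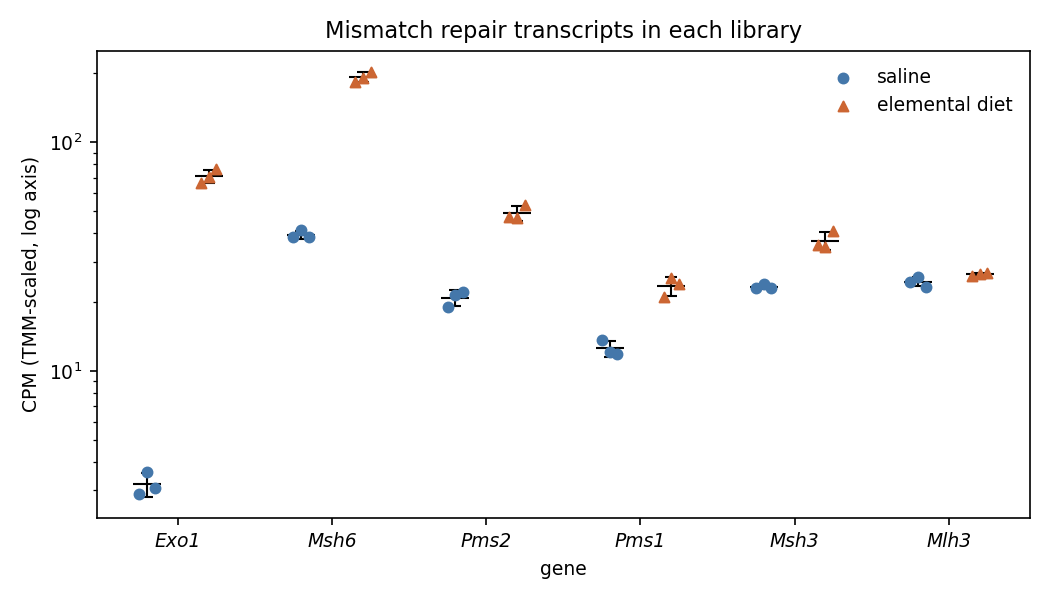
Level of each mismatch repair transcript in each library, as CPM after TMM scaling on a log axis. Points are libraries, horizontal bars are group means and whiskers are the SD (n = 3). Exo1 lies near 3 CPM with saline and near 71 with elemental diet, while the Mlh3 groups nearly touch.

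Msh6, the mispair-recognising MutS subunit (GRCm38 chromosome 17, 87975050 to 87990883, plus strand), was the most abundant of the 6. Its level was 183, 191 and 202 CPM in the elemental diet libraries 1 to 3 and 38.4, 41.3 and 38.5 CPM in the saline libraries. Every elemental diet library lay above every saline library, by far more than the spread within either group (log2 fold change 2.29, SE 0.06, edgeR adjusted p = 1.9e-13). Msh6 shares 25 bases with Fbxo11, an F-box protein gene on the other strand, which was lower with elemental diet (log2 fold change -0.83). The sources used here do not say whether reads were counted by strand. Reads that cross exon junctions gave a log2 fold change of 2.14 for Msh6.

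Msh3, the MutS subunit for loops (chromosome 13, 92211872 to 92355003, minus strand), moved much less. The elemental diet libraries held 35.5, 34.9 and 40.8 CPM and the saline libraries 23.1, 24.0 and 23.0 CPM. The groups did not overlap (log2 fold change 0.67, SE 0.07, edgeR adjusted p = 1.8e-06), although elemental diet library 3 stood above the other two. Within each library Msh6 was therefore higher against Msh3 with elemental diet. Per length, on the authors' TPM (transcripts per 1000000) scale, the ratio of Msh6 to Msh3 was 14.7 to 15.8 with elemental diet and 5.05 to 5.23 with saline. The log2 ratio of their reads differed by 1.62 between the groups, a 3.08-fold change in the ratio that does not depend on scaling between libraries. An exact permutation test, two-sided, returned p = 0.1 (the lowest value possible with 20 arrangements of 3 against 3 libraries) and p = 0.115 adjusted over the 15 pairs of members.

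The promoter window of Msh6 is shown because Msh6 was the MutS gene that rose further and its window holds an E2F motif, a site class found at many genes of DNA synthesis. The sequence is from RefSeq (GRCm38.p6), on the strand of the gene, from 250 bases before the annotated start to 30 bases after it, at chr17:87974800-87975079 (plus). Capitals mark matches to an E2F motif (TTTCGCGC, TTTGGCGC, TTTCCCGC or TTTGCCGC, either strand) or to the CCAAT box (CCAAT, either strand).
Msh6: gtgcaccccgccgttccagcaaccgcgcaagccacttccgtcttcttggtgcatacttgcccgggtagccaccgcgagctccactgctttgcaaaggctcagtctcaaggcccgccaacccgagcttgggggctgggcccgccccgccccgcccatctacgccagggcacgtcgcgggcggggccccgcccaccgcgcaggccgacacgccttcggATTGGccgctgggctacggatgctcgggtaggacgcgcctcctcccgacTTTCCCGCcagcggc
The Msh6 window has TTTCCCGC at positions 16 to 23 after the start and a CCAAT box on the other strand at -34 to -30. Of the 6 members 5, all but Exo1, had a window in the RefSeq table, and 2 of these, Msh6 and Msh3, held an E2F motif, which 2.26% of 32851 windows of 300 bases held. A CCAAT box was in the windows of 4 members and in 37.4% of all, and the CHR motif TTTGAA was in 0 of the members' windows and in 17.9% of all. The Msh3 window held TTTGGCGC at -202 to -195 and, on the other strand, TTTCGCGC at -198 to -191, and Msh3 rose 1.59-fold. A match describes the letters only, and a tie between these motifs and the size of a rise was not tested.

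Among the MutL genes Pms2, the nicking subunit (chromosome 5, 143909964 to 143933968, plus strand), had the largest log2 fold change on total reads. Its elemental diet libraries held 46.9, 46.4 and 53.2 CPM and its saline libraries 19.0, 21.5 and 22.2 CPM, with no overlap between the groups (log2 fold change 1.22, SE 0.08, edgeR adjusted p = 3.8e-09). Only 51.0% of its reads were unique to it, against 99.6% or more for Msh3, Msh6, Mlh3 and Exo1. Its gene model shares 5794 bases with the predicted gene Gm42421 and 934 bases with Rsph10b, both on the same strand. With unique reads alone the log2 fold change was 1.10, and with reads across exon junctions 0.89, below the 1.18 of Pms1 on such reads.

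Pms2 starts 117 bases from Aimp2 on the other strand, which encodes a scaffold of the aminoacyl-tRNA synthetase complex. Its levels were 49.5, 51.2 and 48.4 CPM under elemental diet against 18.4, 17.4 and 19.3 CPM (log2 fold change 1.44, SE 0.07, edgeR adjusted p = 9.4e-11). The log2 ratio of Aimp2 to Pms2 reads differed by 0.22 between the groups, and the groups overlapped (exact permutation p = 0.2, also adjusted over 3 pairs), while exon reads alone gave a difference of 0.42. This shared start region, printed on the strand of Pms2 (RefSeq, GRCm38.p6, chr5:143909751-143910030), held 3 CCAAT boxes in either orientation, where 11.7% of all windows held 2 or more, and no E2F motif.
Pms2: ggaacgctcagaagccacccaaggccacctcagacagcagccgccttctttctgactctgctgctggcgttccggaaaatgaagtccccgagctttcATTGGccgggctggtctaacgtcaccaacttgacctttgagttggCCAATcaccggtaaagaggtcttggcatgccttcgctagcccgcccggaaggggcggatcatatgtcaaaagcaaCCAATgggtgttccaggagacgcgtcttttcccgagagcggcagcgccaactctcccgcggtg

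Pms1, the MutL subunit without a known nicking activity (chromosome 1, 53189187 to 53297018, minus strand), was the least abundant MutL transcript. The elemental diet libraries held 21.0, 25.4 and 23.8 CPM and the saline libraries 13.7, 12.1 and 11.8 CPM, again without overlap (log2 fold change 0.90, SE 0.10, edgeR adjusted p = 1.2e-06). The size depended on which reads were counted: with exon reads alone the log2 fold change was 1.19, near the 1.22 of Pms2 on exon reads, and with intron reads alone 0.55. Ormdl1, a regulator of sphingolipid synthesis that starts 77 bases from Pms1 on the other strand, had 35.3, 35.0 and 36.8 CPM under elemental diet against 21.1, 22.9 and 23.0 CPM (log2 fold change 0.68, SE 0.07, edgeR adjusted p = 6.0e-07). The log2 ratio of Ormdl1 to Pms1 reads differed by -0.22 with overlapping groups (exact permutation p = 0.2, also adjusted over 3 pairs), and by -0.58 on exon reads. Only 10.6% of the Ormdl1 reads were unique. The predicted gene Gm28778 overlaps Ormdl1 on the same strand and held 71 reads with elemental diet and 80 with saline. Why so few Ormdl1 reads were unique was not tested. With reads across exon junctions Ormdl1 did not pass the test (log2 fold change 0.23, edgeR adjusted p = 0.152).

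**Figure D2:**
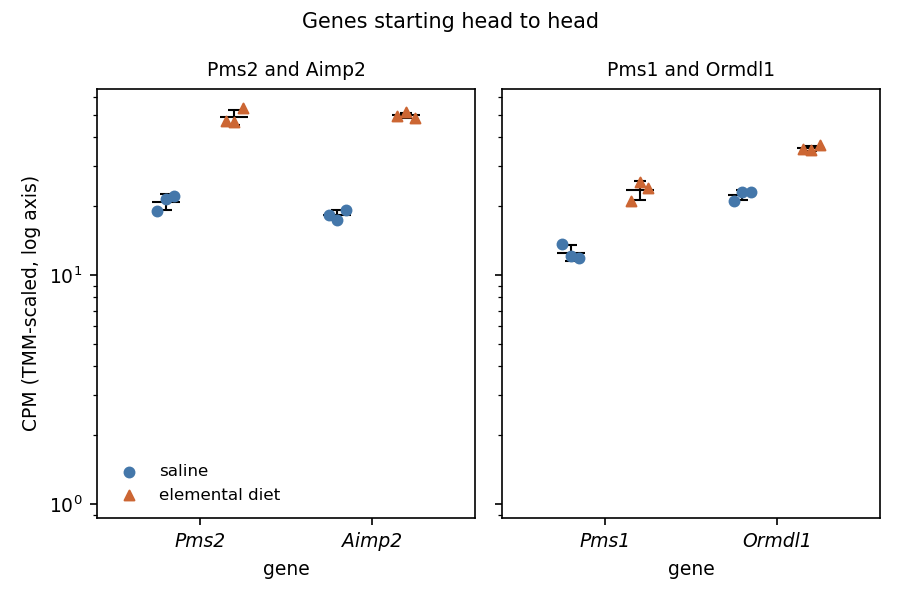
Level of 2 mismatch repair genes and of the gene that starts head to head with each, in CPM after TMM scaling on a log axis. Points are libraries, bars are means and whiskers the SD (n = 3). All 4 genes lie higher with elemental diet in every library.

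Mlh3, the MutL subunit of meiotic crossing over (chromosome 12, 85234520 to 85270599, minus strand), had no settled direction. Its level was 26.0, 26.4 and 26.9 CPM with elemental diet and 24.6, 25.7 and 23.4 CPM with saline. The elemental diet libraries lay just above the saline libraries, and the difference did not pass the test (log2 fold change 0.11, SE 0.07, edgeR adjusted p = 0.182). In all 6 members the CPM of the groups did not overlap, with elemental diet higher, and 39.0% of all genes tested did the same (41.9% were lower without overlap). Mlh3 turned to the other direction and was called lower with upper quartile scaling (log2 fold change -0.16, adjusted p = 0.0418) and with library totals alone (-0.20, adjusted p = 0.0180). Those scalings moved the median of all genes from -0.08 to -0.35 and -0.39, and relative to that median Mlh3 stood at 0.19 under each of them and under TMM scaling. On the authors' TPM scale, which carries no such composition scaling, Mlh3 was 8.32 ± 0.225 TPM with elemental diet and 9.45 ± 0.544 TPM with saline (SD, n = 3).

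The balance among the MutL genes shifted with these unequal changes. Per length the ratio of Pms2 to Mlh3 was 1.63 to 1.75 with elemental diet and 0.696 to 0.850 with saline, so that Pms2 was above Mlh3 in every elemental diet library and below it in every saline library. The log2 ratio of their reads differed by 1.12 (exact permutation p = 0.1, and p = 0.115 adjusted over 15 pairs), and by 1.02 with unique reads. Only 51.0% of the Pms2 reads were unique, against 99.9% of the Mlh3 reads. Which of them stands higher per length on unique reads alone was not computed. Between Pms2 and Pms1 the log2 ratio of reads differed by 0.33 and the groups overlapped (exact permutation p = 0.2, and p = 0.214 adjusted), and between Pms1 and Msh3 by 0.24, also with overlap (p = 0.3 raw and adjusted). With exon reads alone these values were 0.03 and 0.50.

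**Figure D3:**
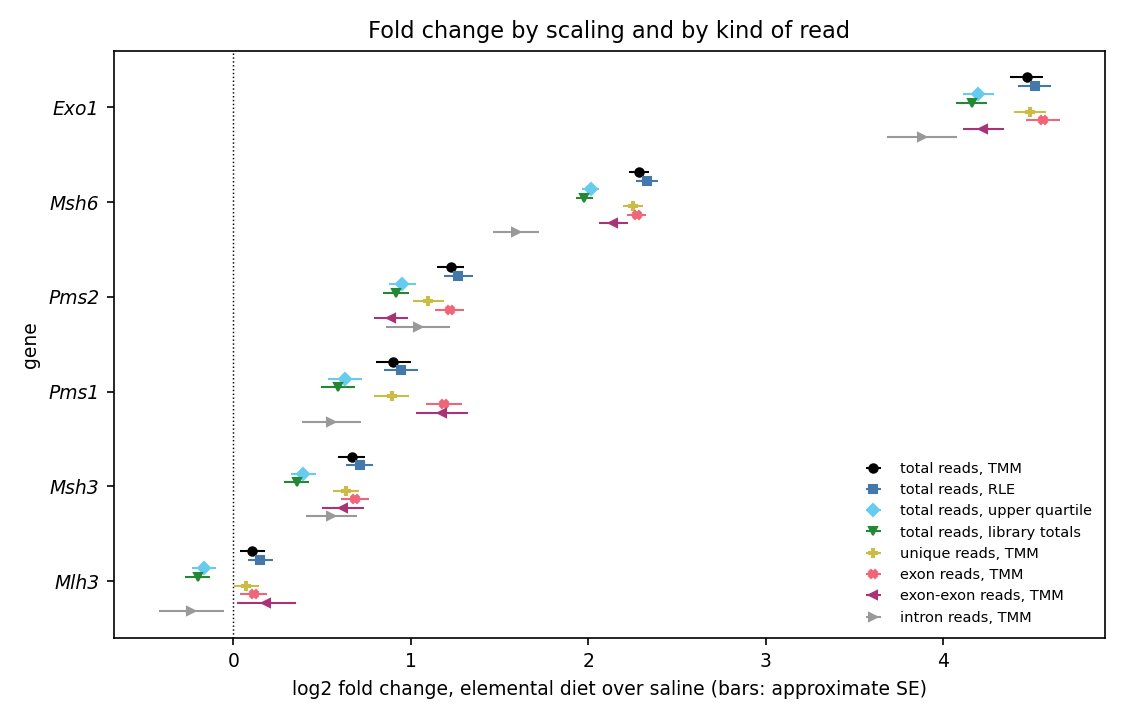
Log2 fold change of elemental diet over saline for each mismatch repair gene under 4 scalings of the total reads and for 4 other kinds of read. Points are fitted values and bars the approximate SE. Every point of Exo1, Msh6, Pms2, Pms1 and Msh3 lies above 0, and those of Mlh3 lie on both sides of it.

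Exo1, the exonuclease of the pathway (chromosome 1, 175880581 to 175913489, plus strand), had the largest change of the 6. Its elemental diet libraries held 66.5, 70.0 and 75.9 CPM and its saline libraries 2.89, 3.60 and 3.08 CPM, that is 5810 reads against 320 over the groups (log2 fold change 4.47, SE 0.09, edgeR adjusted p = 3.4e-14). The lowest elemental diet library was far above the highest saline library. Exo1 also outran Msh6 within libraries: the log2 ratio of their reads differed by 2.18 between the groups, a 4.54-fold change in the ratio (exact permutation p = 0.1, and p = 0.115 adjusted over 15 pairs). Against Mlh3 the ratio changed 20.6-fold.

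The order of the 6 transcripts per length differed between the groups. With saline the TPM levels ran from Msh6 at 28.7 ± 1.29 (SD, n = 3) through Mlh3, Pms2 at 7.41 ± 0.683, Msh3 at 5.60 ± 0.148 and Pms1 at 3.35 ± 0.0446 to Exo1 at 1.02 ± 0.122. With elemental diet they ran from Msh6 at 113 ± 4.19 through Exo1 at 19.7 ± 1.11, Pms2 at 14.0 ± 0.842, Mlh3 and Msh3 at 7.34 ± 0.590 to Pms1 at 6.22 ± 0.421. In both groups each gene lay above the next in all 3 libraries, and the ranges of neighbours in the order did not overlap. Exo1 thus moved from the lowest place with saline to the place after Msh6 with elemental diet. The exon length behind the TPM counts every annotated exon, of 1 transcript for Msh6 and 15 for Msh3, which can understate genes with many annotated forms. Only 51.0% of the Pms2 reads were unique to it, and its place on unique reads alone was not computed.

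Reads in introns made up a smaller part of each of these genes with elemental diet. For Pms1 the intron share was 23.1%, 27.3% and 20.7% of reads with elemental diet and 47.4%, 41.6% and 37.5% with saline. For Exo1 it was 10.97% ± 0.513 against 22.8% ± 5.52 (SD, n = 3), the saline values resting on 100 to 120 reads a library. For Msh6 it was 5.10% ± 0.390 against 11.5% ± 0.548 (SD, n = 3), for Msh3 15.2% ± 2.31 against 22.9% ± 0.480, for Mlh3 9.63% ± 2.15 against 16.98% ± 0.551 and for Pms2 11.2% ± 2.05 against 17.8% ± 3.71. All 6 were lower without overlap (exact two-sided permutation p = 0.1 for each, also adjusted over 6), where 67.6% of 11028 genes with at least 100 reads in every library were lower without overlap and 4.57% higher. Over whole libraries 8.39% to 8.82% of reads lay in introns with elemental diet and 13.7% to 14.4% with saline. The part of this library-wide difference in the members' intron shares was not tested.

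**Figure D4:**
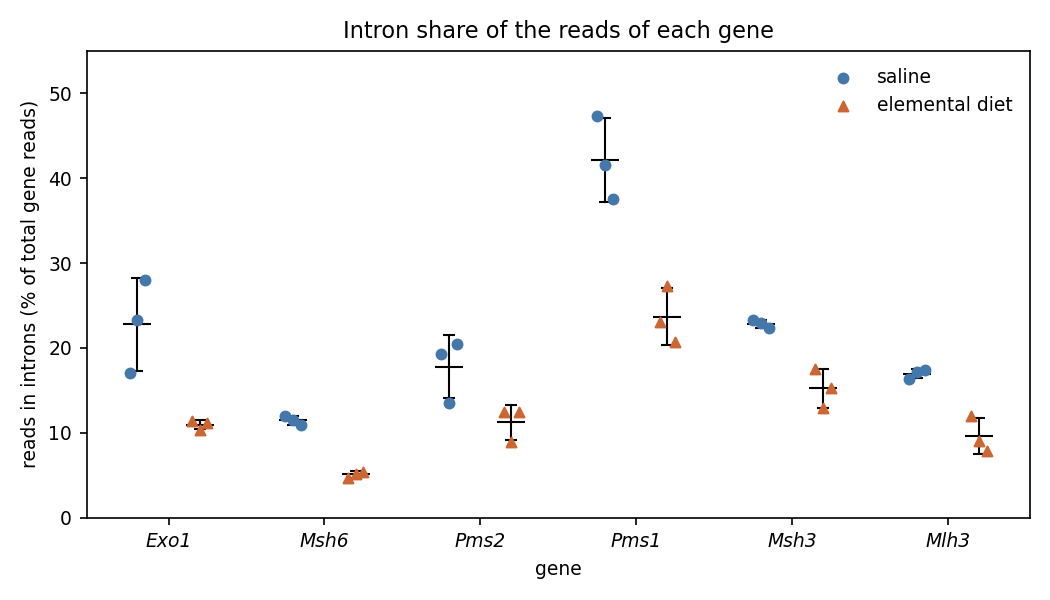
Share of the reads of each mismatch repair gene that lay in introns, in percent of its total reads. Points are libraries, bars are means and whiskers the SD (n = 3). The elemental diet points lie below the saline points for each gene, with the widest gap for Pms1.

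Of 15 excision and resynthesis partners, the genes that finish a mismatch repair event, 14 were higher and 1 lower with elemental diet (median log2 fold change 1.96, against -0.08 over all genes). Over all genes 38.0% were higher and 40.2% lower. Pcna, the sliding clamp that MutS proteins and Exo1 work with, stood at 735 ± 21.7 CPM with elemental diet and 73.3 ± 2.25 CPM with saline (SD, n = 3), a 10.0-fold rise. Lig1, the ligase that seals the gap, rose 18.6-fold, and the clamp loader subunits Rfc4 and Rfc5 rose 12.4-fold and 6.88-fold. The gene that fell was Pold4, the smallest subunit of DNA polymerase delta, at 21.8 ± 2.08 against 80.7 ± 2.50 CPM (log2 fold change -1.89), while Pold1, Pold2 and Pold3 of the same enzyme rose by 1.34, 1.59 and 1.32 on the log2 scale. Pold1 to Pold4 were named after their values were seen.

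Of 13 measured factors tied to mismatch repair by binding or by related substrates, 10 were higher and 2 lower, beside 38.0% and 40.2% of all genes (median log2 fold change 1.89). The 4 with the smallest p were Blm, a helicase, at 13.4-fold, Trip13, an ATPase, at 9.42-fold, and Rnaseh2b and Rnaseh2a, subunits of the enzyme that removes ribonucleotides from DNA, at 4.63-fold and 4.22-fold. The 2 that fell were Hdac6, a deacetylase, and Setd2, the histone methyltransferase whose mark Msh6 binds, by 0.78 and 0.23 on the log2 scale, and both were named after their values were seen. With library totals alone or upper quartile scaling the counts were 9 higher and 3 lower, where 5407 and 5601 of the 18303 genes were higher and 9265 and 9051 lower. Of the 4 glycosylases that remove mispaired thymine or uracil, 3 were higher and 1 lower, again beside 38.0% and 40.2% of all genes: Ung rose 8.03-fold and Tdg 2.99-fold, Mbd4 rose 1.28-fold, and Smug1 fell by 0.60 on the log2 scale. The counts were 2 higher and 1 lower with library totals alone, upper quartile scaling, unique reads or intron reads, and 2 higher and 0 lower with reads across exon junctions or against a change of 1.5-fold.

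The 14 tested S phase and E2F target genes all rose, with log2 fold changes from 3.39 to 5.77 and a median of 3.96. Of all genes tested, 38.0% were higher and 40.2% lower. The proliferating cell list had a median of 4.93 and a lowest value of 3.95. Exo1, at 4.47, lay within both ranges, and Msh6, at 2.29, lay below the lowest gene of either list, as did Pms2, Pms1, Msh3 and Mlh3. Erythroid genes had a median of 3.74, and B cell and T cell genes medians of -2.84 and -2.92.

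**Figure D5:**
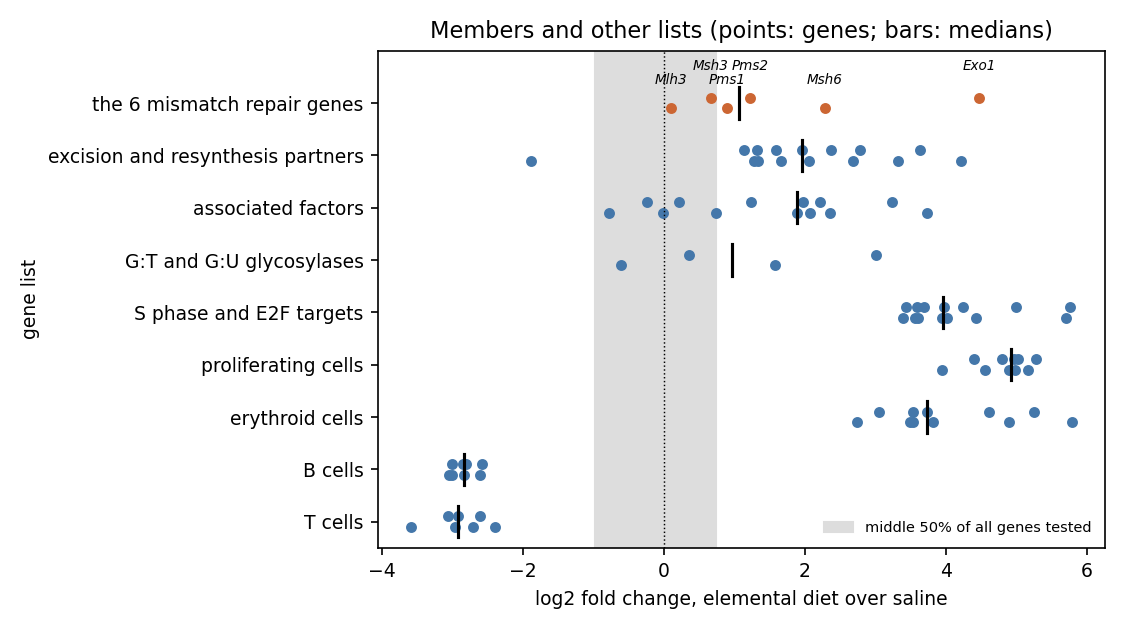
Log2 fold change of elemental diet over saline for the mismatch repair genes and for genes of 8 other lists. Points are genes, vertical bars list medians, and the grey band holds the middle 50% of all genes tested. Exo1 reaches the range of the S phase and proliferating cell genes, and Msh3 and Mlh3 lie inside the grey band.

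The transcripts most like each member over the 6 libraries were taken by the smallest root mean square difference of log2 CPM, each gene centred on its own mean, among 13364 candidate genes (mean level 1 CPM or more). With 2 groups far apart this measure mostly ranks genes by their fold change. For Exo1 they were Kif20a, Kif2c and Ncaph, 2 mitotic kinesins and a condensin subunit, with differences of 0.05 to 0.07. For Msh6 they were Narf, Atp2b4 and Scoc (0.04 each), and for Pms2 Eif3a, Ipo7 and Lrrc41 (0.04 to 0.05). For Pms1 they were Gss, Trmt44 and Mrpl52 (0.03 to 0.04), for Msh3 Lig3, Zfp629 and Rps6ka1 (0.02 to 0.03), and for Mlh3 Crk, Edc4 and Prmt6 (0.02 to 0.03).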

How the data were processed

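Libraries were made from poly(A) RNA and read in pairs of 75 bp, per the labels' protocols. The deposited files hold, per the file headers, read counts for each gene (total and unique, in exons and in introns) and the authors' TPM. For the aligner, counter and strand setting nothing is given in the sources used here. GRCh37 and GRCm38 stand in the submitters' processing notes. Of the 41325 gene identifiers 41297 were in GENCODE M21 (GRCm38), 40469 with the same coordinates; positions printed are those of the files, and 5 of the 6 members have the same coordinates in both.

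Total gene reads were tested with edgeR 4.0.16 in R 4.3.3 (robust glmQLFit, two-sided glmQLFTest, TMM scaling, filterByExpr, Benjamini-Hochberg over 18303 genes at 0.05). The fit was also run on simulated counts with few genes changed, equally up and down. Such a setting does not cover changes as widespread as in these data. The SE is the absolute log2 fold change over the square root of F. CPM carry the TMM factors (0.881 to 1.12), except the 3-read limits, which use library totals. Between replicates the biological coefficient of variation was 8.26%. Ratios within libraries added 0.5 reads. Depth was 29053287 to 33073125 reads per library, 86.0% to 87.7% of them unique. Replicates differed by more than sampling noise (median chi-square at least 2.83 times it). DESeq2 1.42.0, limma 3.58.1, other scalings, filters and kinds of read, the replicate number as a block and leaving out each library were alternatives.

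Named are all members, up to 4 genes of each list by smallest p, genes that start within 1000 bases on the other strand, and the 3 most alike genes. The members and the 14 lists were chosen with earlier results of these data known. Of the listed symbols, Hrob was not matched. The protein motifs of the plan were not searched. Results for some genes are not reported here.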

Additional observations from a re-analysis of the deposited data

How the results depend on the processing

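Over 20 alternative fits the direction and call of Exo1, Msh6, Pms2 and Pms1 were kept in each, with log2 fold changes of 3.88 to 4.56, 1.59 to 2.34, 0.89 to 1.27 and 0.55 to 1.19. Msh3 kept its call in 19 (0.36 to 0.72), the exception being the test against a change of 1.5-fold (log2 fold change 0.67, adjusted p = 0.0937). Mlh3 reversed to -0.16 with upper quartile scaling, to -0.20 with library totals only and to -0.24 with intron reads (adjusted p = 0.0418, 0.0180 and 0.261); for intron reads the cause was not tested. The count of genes called, 14303, was 9535 with intron reads, where 14493 genes were tested, and 9294 against 1.5-fold. Calls higher made up 48.6% of all calls, and 38.2% and 36.9% with upper quartile scaling and library totals. With exon reads the differences in log2 ratio became 0.50 for Pms1 over Msh3, 1.09 for Msh6 over Pms1, 1.07 for Pms1 over Mlh3 and 0.0349 for Pms2 over Pms1, and with unique reads 3.39 for Exo1 over Pms2. Counts of list genes called moved by over 1.5 times in 7 list fits and by less in 273. The fit on reads across exon junctions was added after seeing the data.

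Leaving out each library in turn gave 13770 to 14675 genes called, and log2 fold changes of 4.39 to 4.55 for Exo1, 2.25 to 2.34 for Msh6, 1.14 to 1.27 for Pms2, 0.85 to 0.99 for Pms1, 0.61 to 0.72 for Msh3, 0.07 to 0.13 for Mlh3. The difference in intron share ranged, in percentage points, over -14.7 to -9.2 for Exo1, -6.67 to -6.12 for Msh6, -8.65 to -5.17 for Pms2, -20.8 to -15.8 for Pms1, -8.76 to -6.46 for Msh3, -8.54 to -6.46 for Mlh3. The difference in log2 ratio ranged over 1.58 to 1.66 for Msh6 over Msh3, 0.50 to 0.60 for Msh3 over Mlh3, 0.13 to 0.31 for Pms1 over Msh3, 0.50 to 0.62 for Pms2 over Msh3, 3.75 to 3.88 for Exo1 over Msh3, 2.15 to 2.20 for Msh6 over Mlh3, 1.31 to 1.45 for Msh6 over Pms1, 1.001 to 1.11 for Msh6 over Pms2, 2.13 to 2.24 for Exo1 over Msh6, 0.73 to 0.85 for Pms1 over Mlh3, 1.05 to 1.195 for Pms2 over Mlh3, 4.29 to 4.42 for Exo1 over Mlh3, 0.20 to 0.42 for Pms2 over Pms1, 3.44 to 3.68 for Exo1 over Pms1, 3.18 to 3.32 for Exo1 over Pms2. A replicate block gave log2 fold changes of 4.47 for Exo1, 2.29 for Msh6, 1.22 for Pms2, 0.90 for Pms1, 0.66 for Msh3 and 0.11 for Mlh3, with 14241 genes called, and no member's call changed. Same-numbered libraries did not all deviate together (correlations 0.117, -0.00799 and 0.0578 over genes), so the numbers are not taken to pair the samples. The saline reads of Exo1, 100 to 120 a library, limit its intron share and ratios most.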

Other observations

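Genes of antibody hypermutation and class switching, a setting in which mismatch repair acts in B cells, are given here beside the B cell markers, all 8 of which were lower with elemental diet. Of 6 genes 4 were higher with elemental diet and 2 lower, beside 38.0% and 40.2% of all genes tested (median log2 fold change 0.94, against -0.08 over all genes tested). Bcl6, the transcription factor of germinal centre B cells, was lower, 10.8 ± 1.71 CPM against 33.7 ± 1.03 CPM (SD, n = 3). Polh and Rev1, polymerases that copy past damaged bases, rose 3.65-fold and 1.86-fold. In the same libraries proliferating cell markers summed to 3790 to 4451 CPM against 141 to 147 CPM, and their part in these changes was not tested.

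The meiotic MutS genes were low in both groups. On total reads Msh5 was 1.96-fold higher, from 3.84 ± 0.367 CPM with saline to 7.55 ± 0.637 CPM (SD, n = 3; edgeR adjusted p = 5.3e-05). Its log2 fold change was 0.49 with exon reads and 1.76 with intron reads, and with reads across exon junctions it was 0.18 and not called. The authors' TPM of Msh5, 1.46 ± 0.0442 against 1.27 ± 0.179 (SD, n = 3), overlapped between the groups. Msh4, its partner in meiosis, was counted in 22 elemental diet and 14 saline reads and was not tested.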
